A study of Mus musculus with 3 samples.

Results

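The genes described here encode the subunits of the proteasome and the enzymes that conjugate ubiquitin to proteins. They were taken by symbol from the protein-coding genes on autosomes 1 to 19 of the mm10 RefSeq gene table. Symbols that begin with Psma, Psmb, Psmc or Psmd and a number gave 39 genes, and symbols that begin with Ube2 gave 34, which makes 73 of 20560 genes. The rule also took Psmc3ip, a cofactor of meiotic recombination, and Ube2cbp, a ubiquitin ligase, which are neither proteasome subunits nor conjugating enzymes. The Psm genes comprised 8 alpha subunits, 7 constitutive and 4 inducible or thymic beta subunits, 6 ATPases, 11 other subunits of the regulatory particle and 2 assembly chaperones, beside Psmc3ip.

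Nucleosome positions were mapped in mouse fetal liver erythroblasts, which are nucleated red cell precursors. The starting cells lacked Ter119, a surface marker of late erythroid stages, came from 6 fetuses, and grew in IMDM medium with erythropoietin at 2 U/ml, the hormone of red cell formation, and with insulin, BSA at 1% and fetal bovine serum at 10%. These conditions were shared by all 3 days. Chromatin was taken on culture days 0, 1 and 2 and digested with micrococcal nuclease, which cuts the linker DNA between nucleosomes, with the aim of following nucleosome changes late in red cell formation. The labels give no strain, age or sex, and do not say whether the days share a culture. There was a single library for each day, so no difference between days has a replicate check and none was tested. Nucleosome positions do not show RNA levels, so the cell label was not checked by expression.

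The lists held 3689577, 2967550 and 4382151 positions on the autosomes on days 0, 1 and 2. Each has a summit value, the authors' smoothed coverage at its centre, and these lay on fixed steps that correspond to relative depths of 1, 2.36 and 1.22, an inference from the values. Relative occupancy is the summed summit value per bp of a window divided by the autosome mean of the same library. It was taken over the gene span and over gene-end windows, which reach 500 bp to either side of the start and of the far end. Among marker genes of the cell types a fetal liver culture can hold, the median log2 change of span occupancy on day 2 against day 0, minus that of all genes, was 0.01 for 5 erythroid, 0.13 for 8 macrophage and -0.25 for 7 hepatocyte genes. In the gene-end windows it was -0.39 for 5 erythroid, -0.67 for 4 macrophage and 0.26 for 5 hepatocyte genes, and on day 1 against day 0 it was -0.41, -1.16 and -0.49. Over the span on day 1 against day 0, hepatocyte genes had -0.56, with 0 of 7 above the median of all genes. The part of other cell types in the results below was not tested.

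The proteasome is a barrel-shaped protease made of rings of alpha and beta subunits. Its regulatory particle holds ATPases that unfold substrates and other subunits that bind or remove ubiquitin. Ubiquitin-conjugating enzymes, or E2 enzymes, carry activated ubiquitin or a related modifier and pass it on to proteins with the help of ligases. Maturing erythroid cells discard much of their proteome in this way, and in mice Ube2o clears ribosomal proteins from reticulocytes.

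Promoters of 300 bases, from 250 bases before to 50 bases after the start, were available from RefSeq (mm10) for 59 members, 32 proteasome and 27 Ube2 genes. They also gave the strand, so that the start could be told from the far end of the gene. For each gene the promoter nearest its start in the gene table was used, without a limit on distance. A promoter start can thus differ from the gene end used for the gene-end windows, and that of Ube2b lies inside its span. TGACNNNGC is the element through which the stress factor Nfe2l1 acts on proteasome genes, and the Psmb, Psmc and Psmd promoters printed here are those that held it most often, with ties broken by symbol. No Psma promoter held it, so Psma1 stands for that family, and Ube2h, an E2 enzyme that accumulates in maturing erythroid cells, for the Ube2 genes. Capitals mark the element, read on either strand. The promoters lie at chr7:114276067-114276366 (minus strand) for Psma1, a core alpha subunit; chr14:54617946-54618245 (minus) for Psmb5, the chymotrypsin-like catalytic subunit; chr14:45329574-45329873 (plus) for Psmc6, an ATPase; chr11:107479278-107479577 (plus) for Psmd12, a lid subunit; and chr6:30304490-30304789 (minus) for Ube2h.
Psma1: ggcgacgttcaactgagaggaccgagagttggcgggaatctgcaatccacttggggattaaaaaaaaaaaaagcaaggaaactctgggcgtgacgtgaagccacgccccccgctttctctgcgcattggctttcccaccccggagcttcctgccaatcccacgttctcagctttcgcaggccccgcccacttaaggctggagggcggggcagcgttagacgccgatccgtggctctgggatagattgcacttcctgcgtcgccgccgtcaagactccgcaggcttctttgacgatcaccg
Psmb5: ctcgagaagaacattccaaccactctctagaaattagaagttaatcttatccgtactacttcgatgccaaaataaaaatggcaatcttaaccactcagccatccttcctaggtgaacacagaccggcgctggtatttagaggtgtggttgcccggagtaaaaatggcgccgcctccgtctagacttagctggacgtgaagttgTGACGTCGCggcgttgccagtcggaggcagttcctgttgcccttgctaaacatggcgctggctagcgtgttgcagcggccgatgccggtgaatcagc
Psmc6: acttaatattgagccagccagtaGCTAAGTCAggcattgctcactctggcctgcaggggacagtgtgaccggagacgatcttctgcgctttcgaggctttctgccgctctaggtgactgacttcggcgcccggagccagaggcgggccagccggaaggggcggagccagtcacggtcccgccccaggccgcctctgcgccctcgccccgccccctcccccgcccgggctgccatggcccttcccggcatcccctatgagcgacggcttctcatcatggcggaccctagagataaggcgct
Psmd12: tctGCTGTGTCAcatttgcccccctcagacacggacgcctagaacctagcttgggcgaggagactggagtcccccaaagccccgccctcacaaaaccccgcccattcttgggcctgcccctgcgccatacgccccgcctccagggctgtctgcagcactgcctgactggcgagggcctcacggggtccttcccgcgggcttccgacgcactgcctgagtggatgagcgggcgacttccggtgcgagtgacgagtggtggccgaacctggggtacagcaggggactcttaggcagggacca
Ube2h: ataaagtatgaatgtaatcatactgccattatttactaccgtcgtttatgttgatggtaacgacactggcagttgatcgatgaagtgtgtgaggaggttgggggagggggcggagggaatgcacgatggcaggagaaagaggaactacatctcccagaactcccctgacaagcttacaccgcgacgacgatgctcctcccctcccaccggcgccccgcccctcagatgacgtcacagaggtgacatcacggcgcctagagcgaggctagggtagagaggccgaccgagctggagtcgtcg

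Counted from the start, the element began at -47 in Psmb5 (TGACGTCGC), at -227 in Psmc6 (GCTAAGTCA) and -247 in Psmd12 (GCTGTGTCA), where it reads on the other strand. It was found in 5 of 32 proteasome promoters (15.6%) and 4 of 27 Ube2 promoters (14.8%), against 13.2% of all 16457 promoters. The other carriers were Psmb6, Psmd9, Ube2j1, Ube2q2, Ube2ql1 and Ube2v1. AGATAA, a form of the GATA factor site, was found in 2 of 32 proteasome and 0 of 27 Ube2 promoters, against 9.85% of all promoters. CCAAT was found in 40.6% and 29.6%, against 39.1%, and GGGCGG, the SP1-type box, in 56.2% and 70.4%, against 47.3% of all promoters. Each motif was searched on both strands and counted on its own, and matches of different motifs may overlap. Ube2 promoters had a median GC share of 66.7% and 9.33 CpG per 100 bp, proteasome promoters 57.0% and 6.33, and all promoters 56.7% and 4.67.

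Around the starts of the genes with printed promoters, the centres given here lay inside the gene more often than outside it. Most of the inside centres lay beyond the printed promoter. Within the promoters, the only centres were at -245 bp in Psma1 and 19 bp in Psmb5, both on day 2, and 1 on each of 2 days in Ube2h. Those in Ube2h were at -197 bp on day 1 and -182 bp on day 2. In Psmb5 a position was centred 94 bp inside the start on day 0 (summit value 13.2), 74 bp inside on day 1 (15.3), and 19 and 154 bp inside on day 2 (6.26 and 5.004). In Psmd12 the nearest centres lay at 53, 93 and 53 bp inside on the 3 days, and in Psmc6 at 187, 147 and 127 bp. In Psma1 they lay at 140, 155 and 125 bp, with a further centre at -245 bp on day 2. At none of these 4 genes did a centre fall in the 150 bp before the start on any day. In Ube2h, centres lay 148 bp inside on day 0, at 68 and 228 bp on day 1 and at 58 and 198 bp on day 2, with further centres at -197 bp on day 1 and -182 bp on day 2.

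**Figure D1:**
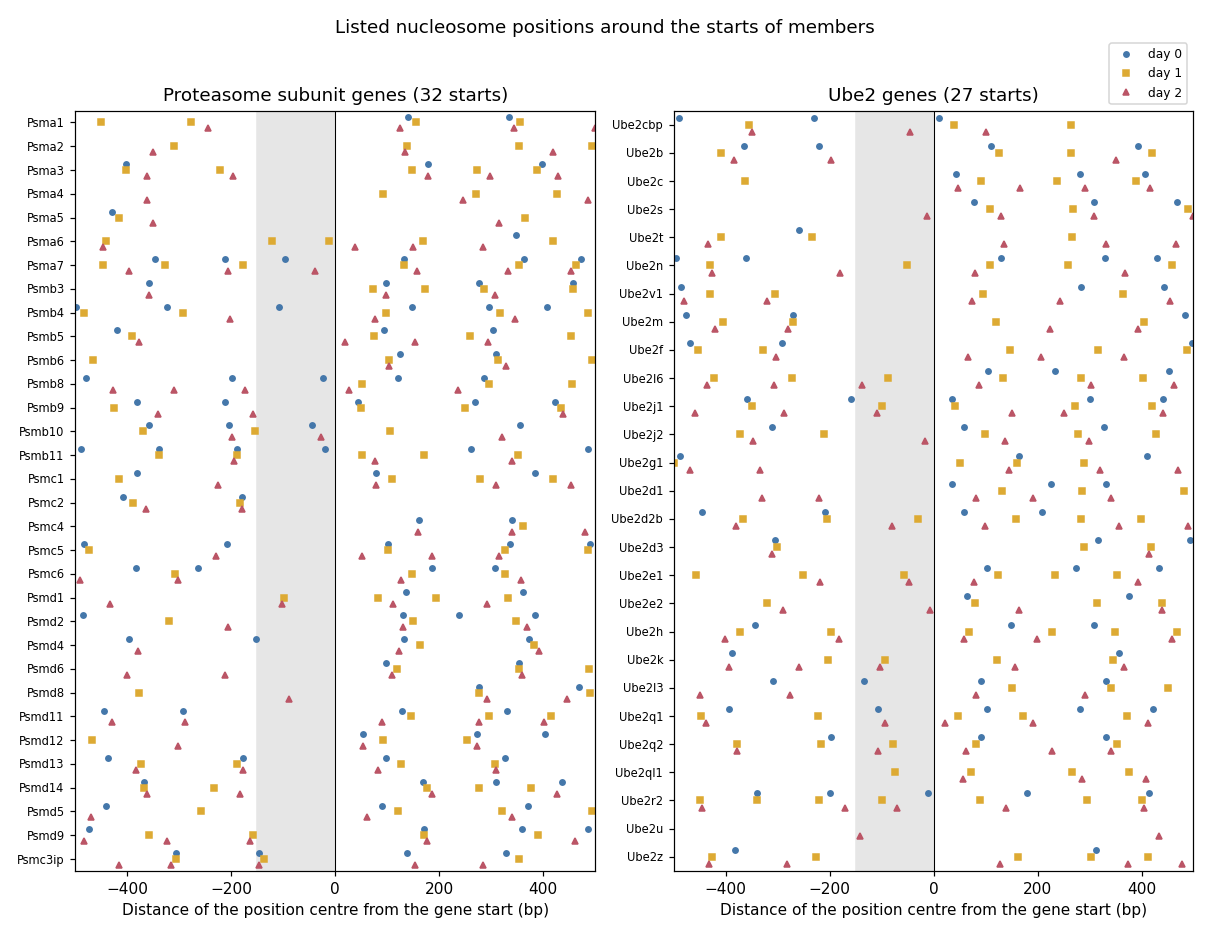
Centres of called nucleosome positions by distance from the gene start in bp (x axis, negative outside the gene) for members with a known start, 1 row per gene, in proteasome genes and Ube2 genes. Blue circles are day 0, yellow squares day 1 and red triangles day 2. In the 150 bp before the start, centres lay in 6, 3 and 5 of 32 proteasome genes on days 0, 1 and 2 and in 3, 9 and 13 of 27 Ube2 genes. Of all genes, 29.6%, 31.0% and 36.4% had such a centre.

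Across the 32 proteasome genes with a start, a position was centred 1 to 150 bp outside in 6, 3 and 5 genes on days 0, 1 and 2 (18.8%, 9.38% and 15.6%), against 29.6%, 31.0% and 36.4% of all genes. In 23 of the 32 genes (71.9%, exact Clopper-Pearson 95% interval 53.3 to 86.3%) this stretch held no centre on any day, against 44.0% (43.3 to 44.8%) of all genes. These intervals cover counting error only, and were not used as a test. The 9 genes with a centre there on some day were Psma6, Psma7, Psmb4, Psmb8, Psmb10, Psmb11, Psmc3ip, Psmd1 and Psmd8. Among them were 3 of the 4 inducible or thymic genes, and Psmc3ip was the 1 gene with a centre there on all 3 days. Without the inducible and thymic genes and Psmc3ip, 22 of 27 genes held no centre there on any day, and all 5 ATPase genes with a start were among these 22. This split by role was described after the values were seen. Over the longer stretch of the promoters, a centre lay in 34.4%, 37.5% and 65.6% of the 32 genes on days 0, 1 and 2. Against 52.3%, 52.3% and 63.0% of all genes, the share was thus lower on days 0 and 1 but not on day 2.

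In the 27 Ube2 genes the same stretch held a centre in 3, 9 and 13 genes on the 3 days (11.1%, 33.3% and 48.1%). On day 0 only Ube2l3, Ube2q1 and Ube2r2 had such a centre, and Ube2r2 had it on all 3 days. On no day was there a centre in 11 of the 27 (40.7%), against 44.0% of all genes. These included Ube2h and Ube2z, and Ube2b, Ube2c and Ube2t, which act in DNA repair and cell division, while Ube2n and Ube2s of the same role held a centre there. With the same number of positions taken from each library, the shares were 7.41%, 33.3% and 37.0%. The shares of all genes were not taken at this setting, so these cannot be set against them.

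Inside the gene, a position was centred 1 to 200 bp from the start in 24, 27 and 26 of 32 proteasome genes (75%, 84.4% and 81.2%) and in 18, 24 and 23 of 27 Ube2 genes (66.7%, 88.9% and 85.2%). The shares over all genes were 59.4%, 65.9% and 68.1%. On all 3 days it was present in 21 proteasome genes (65.6%, 46.8 to 81.4%) and 17 Ube2 genes (63.0%, 42.4 to 80.6%), against 40.8% of all genes. It was listed on no day in Psma5, Psmc2 and Psmd8, and in Ube2d3 and Ube2u. The median distance of the centre nearest the start was 129.5, 119 and 106.5 bp in proteasome genes and 91.5, 103.5 and 88 bp in Ube2 genes.

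The same centre, within 20 bp, was found on all 3 days in 4 of 32 proteasome genes (12.5%, 3.51 to 29.0%) and 1 of 27 Ube2 genes (3.70%), against 4.50% of all genes. It lay at 124, 104 and 104 bp in Psmb6, the caspase-like catalytic subunit, and at 131, 149 and 131 bp in Psmd2, a scaffold of the regulatory particle. It lay at 171, 171 and 176 bp in Psmd9, an assembly chaperone, and at 169, 177 and 187 bp in Psmd14, the subunit that removes ubiquitin. In Ube2g1 it lay at 165, 160 and 145 bp.

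**Figure D2:**
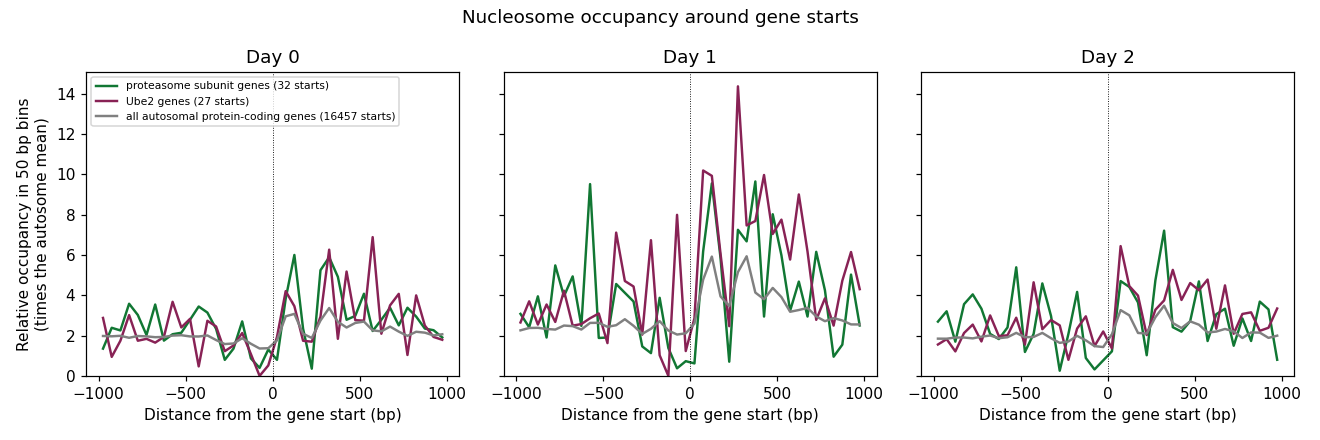
Mean relative occupancy (y axis, summed summit values per bp over the autosome mean of the library) by distance from the gene start in bp (x axis), in bins of 50 bp, for proteasome genes (green), Ube2 genes (purple) and all genes (grey), 1 panel per day. The stretch from 150 bp outside to the start averaged 0.858, 0.831 and 0.660 in proteasome genes on days 0, 1 and 2, and 0.534, 3.08 and 2.21 in Ube2 genes. Over all genes it averaged 1.44, 2.14 and 1.56.

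Weighted by summit value, the contrast across the start was larger in proteasome genes than in all genes. From 150 bp outside to the start, relative occupancy averaged 0.858, 0.831 and 0.660 on days 0, 1 and 2, and from the start to 200 bp inside it averaged 3.24, 5.55 and 3.497. The outside value was 0.265, 0.150 and 0.189 of inside, against 0.584, 0.496 and 0.595 over all genes. In Ube2 genes outside averaged 0.534, 3.08 and 2.21 and inside 2.84, 7.26 and 4.06, a ratio of 0.188, 0.424 and 0.545. The outside value of Ube2 genes was lowest on day 0, as was that of all genes, at 1.44, 2.14 and 1.56 on the 3 days. The inside values of both groups were highest on day 1, as were those of all genes, at 2.47, 4.31 and 2.62. The day 1 library had the largest inferred depth and the fewest positions, and what depth does to these values was not tested.

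Over the whole gene, proteasome genes carried more nucleosome signal per bp than the average gene. Their median relative occupancy over the span was 2.99, 3.99 and 2.52 on days 0, 1 and 2, against 1.92, 2.09 and 1.74 over all genes, with 3.05, 2.95 and 3.34 positions per kb, against 2.05, 1.72 and 2.26. They are short, with a median span of 12293 bp, against 17574 bp in all genes. Ube2 genes, with a median span of 33056 bp, had a median occupancy of 2.10, 2.54 and 2.14 and 2.17, 1.94 and 2.45 positions per kb. In the gene-end windows the medians were 2.74, 3.67 and 2.55 in proteasome genes and 2.29, 4.07 and 2.65 in Ube2 genes, against 1.91, 2.55 and 1.87 in all genes.

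**Figure D3:**
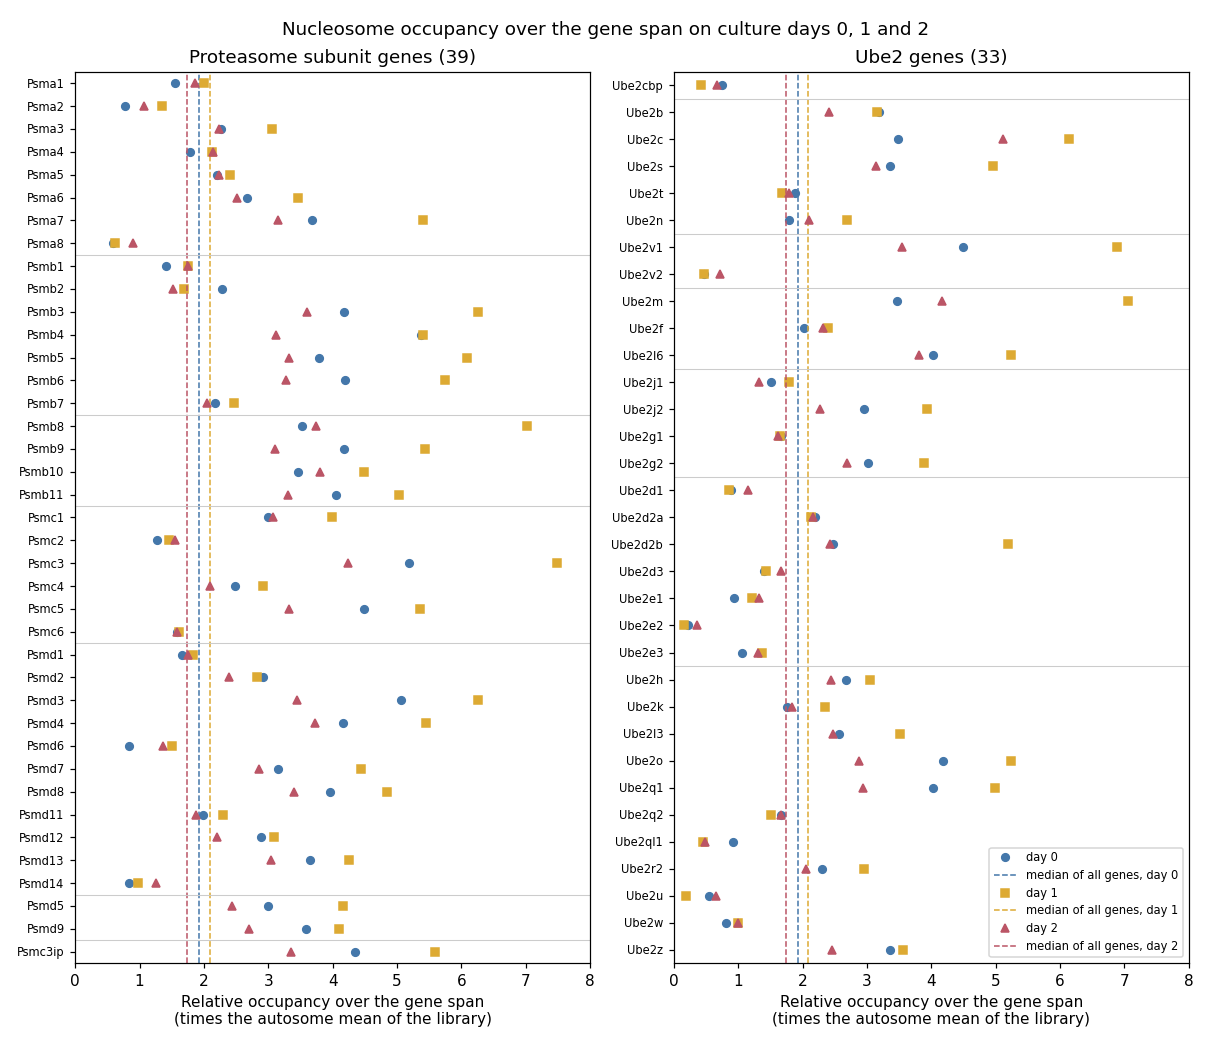
Relative occupancy over the gene span (x axis, times the autosome mean of the library) of the members, 1 row per gene, with days 0, 1 and 2 as blue circles, yellow squares and red triangles and the median of all genes as dashed lines. Psmc3 stood highest on day 1 among proteasome genes at 7.48, and Ube2e2, at 0.221, 0.164 and 0.355, lay lowest among Ube2 genes.

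The core subunits differed widely among themselves. Among the catalytic subunits, span occupancy on days 0, 1 and 2 was 3.79, 6.08 and 3.32 in Psmb5, 4.19, 5.75 and 3.27 in Psmb6, and 2.17, 2.47 and 2.04 in Psmb7, the trypsin-like subunit. Each was highest on day 1. The inducible subunits of the immunoproteasome reached 3.53, 7.02 and 3.74 in Psmb8, 4.18, 5.43 and 3.10 in Psmb9 and 3.46, 4.48 and 3.81 in Psmb10. The thymic subunit Psmb11 had 4.05, 5.03 and 3.30, within the range of the constitutive genes, and the testis-type alpha subunit Psma8 had 0.588, 0.620 and 0.902, the lowest of the group on each day.

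Among the ATPases, Psmc3 had 5.19, 7.48 and 4.23, Psmc5 4.49, 5.35 and 3.32, and Psmc1 2.99, 3.99 and 3.07. Psmc2, Psmc4 and Psmc6 lay lower, at 1.26, 1.46 and 1.55, at 2.49, 2.92 and 2.09, and at 1.59, 1.61 and 1.59. The ubiquitin receptor Psmd4 had 4.17, 5.44 and 3.72, while Psmd14 had 0.835, 0.970 and 1.26. The chaperones Psmd5 and Psmd9 had 2.998, 4.17 and 2.44, and 3.58, 4.10 and 2.71.

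On day 1 against day 0, proteasome genes had a median change close to that of all genes. Their median log2 change over the span was 0.31, against 0.20 over all genes, with 37 of 39 above 0 and 29 above the median of all genes, and 0 changed by 2 times, against 9.13% of all genes. The median lay 0.12 above that of all genes, and 0.04 above when each gene was centred on genes of like length, in 10 classes. In the gene-end windows, 36 genes had at least 3 positions on each day, the minimum used throughout, and their median was 0.46, against 0.45. There 4 were higher by 2 times and 0 lower, against 16.2% and 1.31% of all genes, and with libraries scaled to the median of all gene windows 3 were higher and 1 lower, against 5.22% and 4.97%. Psma3, an alpha subunit, had gene-end occupancy of 0.668, 2.82 and 1.79 on days 0, 1 and 2 from 3, 7 and 7 positions, and its log2 change on day 1 was 2.08. Psma5 followed with 0.986, 2.88 and 1.53 and a change of 1.55. The largest decreases were -0.66 in Psmc4 and -0.57 in Psmb2.

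On day 2 the proteasome genes were lower than on day 1 and near their day 0 level in the median. Over the span the median log2 change on day 2 was -0.48 against day 1 and -0.16 against day 0, where all genes had -0.33 and -0.15, and 0 genes changed by 2 times in either, against 11.6% and 7.74% of all genes. In the gene-end windows 5 were lower by 2 times and 0 higher on day 2 against day 1, against 19.7% and 0.593% of all genes, and with the scaling to gene windows 0 were lower, against 4.96%. The largest of these decreases were -1.43 in Psmb5 and -1.23 in Psmd3, and the largest increases 0.37 in Psmc4 and 0.23 in Psmb10.

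On day 2 against day 0, 2 proteasome genes were higher and 1 lower by 2 times in the gene-end windows, against 4.24% and 6.54% of all genes. Psmd12, on chromosome 11 from 107479528 to 107498036 (mm10), had relative occupancy of 3.36, 2.76 and 1.37 on days 0, 1 and 2 from 7, 6 and 3 positions, a log2 change of -1.30 on day 2, and a ratio of position numbers, scaled by the library totals, of 0.361 (exact 95% interval 0.0602 to 1.58, counting error only). Psmd6, another lid subunit, on chromosome 14 from 14112185 to 14120945, had 0.700, 2.04 and 2.00 from 3, 5 and 6 positions and a change of 1.51, with a ratio of 1.68 (0.360 to 10.4). Both intervals include 1. Psma3 (1.43), Psmc6 (0.67) and Psma5 (0.63) also had higher values, and Psmb2 (-0.81), Psmd3 (-0.73) and Psmb5 (-0.69) were lower. Psma2, Psma6 and Psma8 were left out for fewer than 3 positions on some day, and had 1, 5 and 5, 2, 9 and 9, and 3, 3 and 2 positions.

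Over the span, the largest changes on day 2 against day 0 were smaller than 2 times. Psmb4 had 5.37, 5.41 and 3.12 on days 0, 1 and 2, a log2 change of -0.78, and Psmb2 had 2.28, 1.68 and 1.52, a change of -0.58 with 107, 70 and 86 positions and a scaled ratio of 0.677 (0.503 to 0.907). Psmd3 (-0.55) and Psmc5 (-0.43) followed. On the other side, Psmd6 had 0.71, Psma8 0.62 with a ratio of 1.57 (1.12 to 2.23), Psmd14 0.59 with 1.34 (1.07 to 1.69), and Psma2 0.46. These genes were picked as extremes, so the intervals do not test them.

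**Figure D4:**
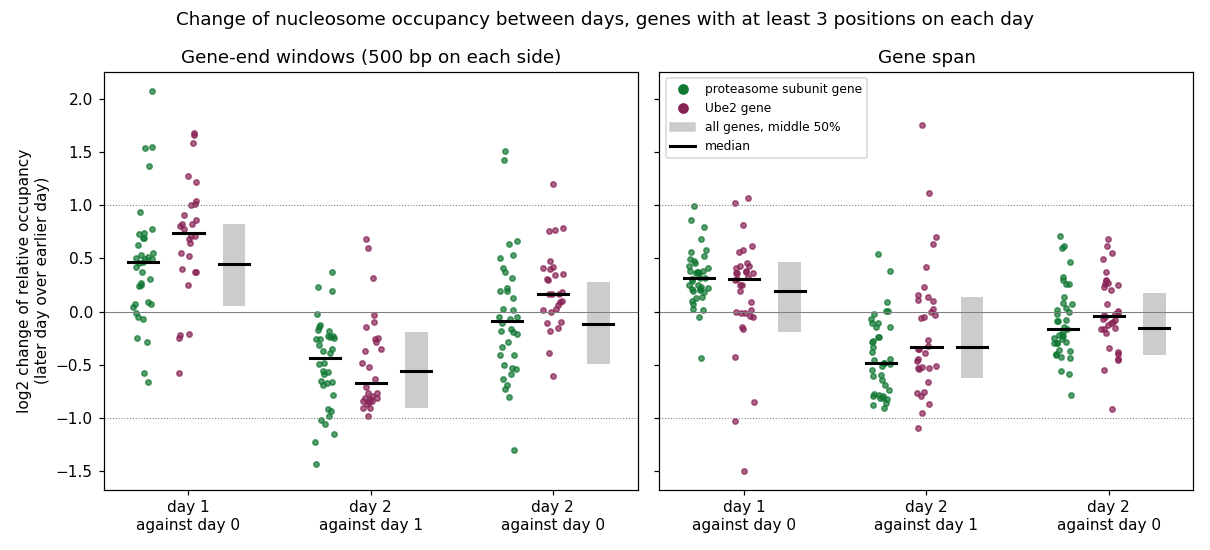
Log2 change in relative occupancy (y axis) of each member with at least 3 positions on each day, for day 1 against day 0, day 2 against day 1 and day 2 against day 0, in gene-end windows and gene spans, with proteasome genes in green and Ube2 genes in purple. Black bars are medians, grey boxes the middle 50% of all genes and dotted lines changes of 2 times. Ube2 genes lay above proteasome genes in the gene-end windows on day 2 against day 0, with medians of 0.17 and -0.09.

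Ube2 genes had a larger median change at their ends than all genes on day 1 and on day 2, each against day 0. In the gene-end windows 28 of 34 members had at least 3 positions on each day, and on day 1 against day 0 their median log2 change was 0.74, against 0.45 over all genes, with 8 of 28 higher by 2 times and 0 lower, against 16.2% and 1.31% of all genes. With the scaling to gene windows 3 were higher and 0 lower, against 5.22% and 4.97%. With each position counted once 2 of 28 were higher and 0 lower, against 8.22% and 0.836%. On day 2 against day 0 the median was 0.17, against -0.12, with 24 of 28 above the median of all genes, and 1 higher by 2 times and 0 lower, against 4.24% and 6.54%. On day 2 against day 1 it was -0.67, against -0.56, with 0 changed by 2 times in either direction, against 20.3% of all genes. The 6 members left out were Ube2e1, Ube2e2, Ube2ql1, Ube2u, Ube2v2 and Ube2w. Ube2e2 held 0, 1 and 4 positions and Ube2u 1, 0 and 3.

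Ube2h, on chromosome 6 from 30211289 to 30304539, had gene-end occupancy of 1.97, 6.30 and 4.51 on days 0, 1 and 2 from 5, 10 and 9 positions. Its log2 change was 1.68 on day 1 and 1.20 on day 2 against day 0, and the scaled ratio of positions on day 2 was 1.52 (0.456 to 5.76). Its span did not share this increase on day 2. Span occupancy of Ube2h was 2.67, 3.05 and 2.45 from 367, 341 and 367 positions. The span change on day 2 against day 0 was -0.13, against -0.15 over all genes, with a scaled ratio of 0.842 (0.727 to 0.976). At its ends Ube2k, which makes ubiquitin chains, had 1.56, 4.93 and 2.63 and changes of 1.66 and 0.76. Ube2q2 (0.79) and Ube2z (0.77) were also among the largest increases on day 2 against day 0. Ube2b, the partner of the Rad18 ligase, had 3.44, 2.30 and 2.26 and a change of -0.61, followed by Ube2q1 (-0.39), Ube2g2 (-0.18) and Ube2d3 (-0.15). On day 2 against day 1, Ube2r2 (-0.98) and Ube2n (-0.91) were lowest and Ube2g1 (0.68) and Ube2t (0.60) highest.

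By role, the ends of every class of E2 enzyme lay above all genes in the median on day 2 against day 0. The 11 E2 enzymes outside the named families lay highest. For the 8 with enough positions the median log2 change lay 0.64 above that of all genes, with 7 above it, and on day 2 against day 1 it lay 0.23 below, with 2 above. Over the span, on day 2 against day 0, it lay 0.03 above. The 4 genes Ube2j1, Ube2j2, Ube2g1 and Ube2g2, which include E2 enzymes of the endoplasmic reticulum, lay 0.42 above at their ends on day 2 against day 0. The 5 of cell cycle and DNA repair lay 0.20 above with 4 above. E2 enzymes of other modifiers lay 0.35 above with 4 of 4 above, and the Ube2d and Ube2e families 0.21 above with 4 of 5. The 1 variant without a catalytic cysteine that had enough positions lay 0.28 above. In proteasome genes the constitutive beta subunits lay 0.43 below all genes, with 3 of 7 above their median, and the ATPases 0.28 above, with 4 of 6. The alpha subunits lay 0.14 above with 3 of 5, and the other regulatory subunits 0.06 above with 7 of 11. Inducible or thymic beta subunits lay 0.14 below with 2 of 4 above, and the chaperones 0.17 below with 0 of 2. Over the span the constitutive beta subunits lay 0.06 below and the ATPases 0.03 above.

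Over the span the Ube2 genes changed in both directions. Their median log2 change was 0.30 on day 1 against day 0, against 0.20 over all genes, with 20 of 34 above that value. On day 2 against day 1 it was -0.34, against -0.33, with 17 above. On day 2 against day 0 it was -0.04, against -0.15, with 24 above. Ube2ql1 had 0.923, 0.453 and 0.490 on days 0, 1 and 2 from 62, 23 and 39 positions, a log2 change of -0.91 on day 2. Ube2o, on chromosome 11 from 116537740 to 116581503, had 4.19, 5.23 and 2.87 from 215, 225 and 191 positions, a change of -0.54 and a scaled ratio of 0.748 (0.612 to 0.913). Ube2q1 changed by -0.46 and Ube2z by -0.45. Ube2e2, with 132, 79 and 242 positions on chromosome 14, changed by 0.69 (ratio 1.54, 1.24 to 1.92), Ube2v2 by 0.62, Ube2c by 0.55 and Ube2e1 by 0.49. No member changed by 2 times on day 2 against day 0, against 7.74% of all genes. On day 1 against day 0, 2 were higher and 2 lower, against 3.45% and 5.68% of all genes, and 0 and 2 with the scaling to gene windows, against 2.42% and 7.31%. Ube2u (-1.49, from 71, 22 and 96 positions on the 3 days) and Ube2ql1 (-1.03) were lower and Ube2d2b (1.07) and Ube2m (1.02) higher. On day 2 against day 1, Ube2u (1.75) and Ube2e2 (1.11) were higher and Ube2d2b (-1.10) lower, against 7.58% and 4.05% of all genes.

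Positions kept their place between days more often in proteasome spans than over all genes. A centre of day 1 lay within 20 bp of a day 0 centre for 22.1% of 2186 positions in proteasome spans (95% interval 20.4 to 23.9%), 19.5% in Ube2 spans and 18.1% over all genes. For day 2 against day 0 the shares were 19.9%, 16.3% and 15.4%. Proteasome genes also had more positions per kb, and its part in the shares was not tested. The fuzziness score, which describes how widely reads spread around a centre, had medians of 52.0, 55.2 and 52.5 in proteasome genes and 51.6, 54.9 and 52.0 in Ube2 genes, against 51.5, 54.8 and 51.6 over all genes.

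Neighbouring genes share some of these windows. A gene on the opposite strand started within 1000 bp of 5 of 32 proteasome starts (15.6%), against 7.79% of all genes and 0 of 27 Ube2 starts. These pairs were Psma2 with Mrpl32, Psma7 with Ss18l1, Psmb9 with Tap1, Psmc5 with Ftsj3 and Psmd13 with Sirt3. Psmb9 and Tap1 both act in antigen presentation. Psma4, Psmc3ip and Psmd1 overlap another gene, and so do Ube2b, Ube2d2b and Ube2e1, so their windows cannot be told apart from those of the overlapping gene. Another gene lay within 500 bp of 10 proteasome and 6 Ube2 genes, these overlapping genes included, and there the gene-end windows are shared. Among them were Ube2k, beside Smim14, and Ube2z, beside Snf8, both named for increases at their ends.

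The other genes of the pathway, a list of 31 that holds proteasome activators and chaperones, ubiquitin genes, activating enzymes and ligases, was described by the same windows. On day 1 against day 0 the 27 with enough positions at their ends had a median log2 change 0.22 above that of all genes, with 20 above it, 9 higher by 2 times and 0 lower, against 16.2% and 1.31% of all genes. Between day 2 and day 1 the median lay 0.02 below, with 13 above, 0 higher and 7 lower, against 0.593% and 19.7%. On day 2 against day 0 it lay 0.01 above, with 16 above, 1 higher and 0 lower, against 4.24% and 6.54%. The SUMO-activating subunit Uba2 had gene-end occupancy of 1.26, 2.37 and 2.61 and a change of 1.04, and the chaperone Psmg1 1.43, 3.52 and 2.79 and 0.96. The maturation factor Pomp had 3.69, 3.89 and 2.00 and a change of -0.88, and the ligase Ube4b -0.64. Over the span the median of the 31 was 0.14 above all genes on day 1 against day 0, 0.12 below on day 2 against day 1 and 0.06 above on day 2 against day 0, and Ube3a, a ligase, had 0.293, 0.239 and 0.602 and a change of 1.04.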

How the data were processed

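Nucleosome positions were analysed from 3 libraries, 1 per culture day. The submitters' processing notes name Bowtie2, bedtools and the genome build mm10, with versions, position caller and read totals not given in the sources used here. Per the file headers, the authors deposited for each position a summit value, a smoothed coverage signal, beside a fuzziness score whose unit is not stated and 2 p-values, which were not used. Genes came from a RefSeq table in mm10 coordinates, and starts from RefSeq promoters.

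Summit values were summed over the windows and set relative to each library's autosome mean, without a pseudocount. Genes entered counts only with 3 or more positions on every day and a change of 2 times, a rule of size in place of a test. Intervals are exact 95% Clopper-Pearson or conditional binomial ones. Named genes were the extremes of each group and window, members with a known role and members with 0 positions, by a stated rule, and those in the account of starts were added after their values were seen. The result of 1 Ube2 gene is not reported here. The members, lists and rules were chosen with earlier results of these data known. Alternatives changed the scaling, the weight, the summit and position minimum, the window and the number of positions per library. Read depth is unknown, so the number of positions limits the precision at a gene. The calculation was tested on the day 0 positions with the summit values of some genes changed by known factors. That check does not cover differences in depth or placement between libraries. The software was Python 3.11.15, pandas 2.3.3, numpy 2.4.6, scipy 1.17.1 and matplotlib 3.10.9.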

Additional observations from a re-analysis of the deposited data

Results flagged for a closer look

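The 4 genes of the symbol rule on chromosome X lie outside the comparisons, which used autosomes. Ube2a on each day and Psmd10 on day 2 held more positions than the 3 that a count of 0 allows. Ube2a, an E2 of DNA repair, had 10, 9 and 15 positions over its span on days 0, 1 and 2, and the assembly chaperone Psmd10 had 3, 2 and 7. Ube2dnl1 had 0, 0 and 1 and Ube2dnl2 had 0 on each day. These are counts of positions as listed, unscaled, and no difference between days was tested.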

How the results depend on the processing

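With 1 library per day no replicate could be left out. No paired analysis was possible because there is 1 library per day and no result comes from a test. Of the values recomputed under the alternatives, 117 kept within their tolerance and 63 moved past it. For day 1 against day 0, day 2 against day 1 and day 2 against day 0, the numbers of members changed by 2 times were 4, 5 and 3 at the ends and 0, 0 and 0 over the span in proteasome genes, and 8, 0 and 1, and 4, 3 and 0, in Ube2 genes. With libraries scaled to the median of all gene windows, the end counts were 3 on day 1 against day 0 and 2 on day 2 against day 1 for Ube2 genes and 0 on day 2 against day 1 for proteasome genes, and the Ube2 span count on day 1 against day 0 was 2. Of all genes 10.2% and 8.22% then changed at the ends on day 1 against day 0 and day 2 against day 1, and 9.74% over the span on day 1 against day 0. Counting each position once gave 2 for Ube2 on day 1 against day 0, at the ends and over the span, 1 and 1 for proteasome genes on day 2 against day 1 and day 2 against day 0, and 0 for Ube2 on day 2 against day 0. With a minimum of 1 position the end counts were 1 for Ube2 genes on day 2 against day 1, and on day 2 against day 0 5 for proteasome and 3 for Ube2 genes. With the same number of positions per library the end counts were 2 on day 1 against day 0 and 2 on day 2 against day 1 for proteasome genes, and 1 on day 2 against day 1 and 2 on day 2 against day 0 for Ube2 genes. The span counts were then 1 on day 1 against day 0 and 1 on day 2 against day 0 for proteasome genes, and 1 on day 2 against day 1 and 4 on day 2 against day 0 for Ube2 genes. With windows of 1000 bp the end counts were 1 for proteasome and 3 for Ube2 genes on day 2 against day 1, and 2 for Ube2 genes on day 2 against day 0. At a summit value of 10 or more few members were left (8 proteasome and 7 Ube2 genes at the ends, 30 and 25 over the span): end counts were 0, 0 and 0 for proteasome and 3, 2 and 0 for Ube2 genes, span counts 4, 8 and 7 for proteasome and 8, 5 and 6 for Ube2 genes. There the median relative to all genes was -0.33 for proteasome ends on day 1 against day 0, 0.27 for Ube2 spans on day 1 against day 0 and 0.23 for proteasome spans on day 2 against day 0. Shares of starts with an inside centre were then 43.8%, 46.9% and 50% for proteasome and 33.3%, 66.7% and 40.7% for Ube2 genes on days 0, 1 and 2. Outside shares on days 0, 1 and 2 were 3.12%, 6.25% and 3.12% for proteasome and 3.70%, 22.2% and 22.2% for Ube2 genes. The inside and outside shares of all genes were not taken at this summit value. Median fuzziness was 51.7 on day 0 and 51.4 on day 2 for proteasome and 55.4 and 51.3 on days 1 and 2 for Ube2 genes. Shares of kept positions for day 1 against day 0, day 2 against day 1 and day 2 against day 0 were 12.9%, 11.6% and 10.8% within 10 bp and 37.6%, 35.5% and 34.8% within 40 bp in proteasome genes, and 11.4%, 9.84% and 9.92%, and 34.0%, 28.2% and 29.5%, in Ube2 genes. Over all genes the kept shares were 10.4%, 8.51% and 8.81% within 10 bp and 32.5%, 26.1% and 27.7% within 40 bp. For these 3 comparisons in turn, the shares of all genes changed by 2 times were 17.5%, 20.3% and 10.8% at the ends and 9.13%, 11.6% and 7.74% over the span as reported, and 9.06%, 13.4% and 6.19%, and 6.58%, 8.55% and 5.69%, with each position counted once. They were 24.6%, 24.5% and 18.7%, and 11.6%, 14.0% and 9.97%, with a minimum of 1 position, and 14.8%, 12.6% and 11.8%, and 10.4%, 6.95% and 11.1%, with the same number of positions. At a summit value of 10 or more they were 30.7%, 16.8% and 15.2%, and 26.3%, 21.2% and 23.6%, and with windows of 1000 bp 13.3%, 12.5% and 9.39% at the ends. The cause of these moves was not tested. Windows hold few positions, so single members carry wide counting error.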
